A study of Mus musculus with 12 samples.

Results

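The cytochrome P450 genes of families 1 to 4 were taken as every probe set whose gene symbol joins Cyp, a family number from 1 to 4, a subfamily letter and a gene number. This rule found 51 of the 15780 named genes on the array, 3 in family 1, 30 in family 2, 5 in family 3 and 13 in family 4. The 12 Affymetrix mouse expression arrays held RNA of primary hepatocytes, the main cell type of liver, isolated from male C57BL/6J mice at 8 weeks of age. Cells labelled wild type and cells labelled Cnot6l knockout were compared. The mouse line behind the knockout is not described further. From each preparation, a portion gave the input RNA, and another gave the RNA that came down with an antibody against CNOT6L (IP), a deadenylase of the CCR4-NOT complex. Input and IP of both genotypes made 4 groups of 3 arrays, numbered 1 to 3, and the knockout IP measured the background of the precipitation.

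P450 enzymes are haem proteins of the endoplasmic reticulum that use molecular oxygen and electrons from P450 reductase to oxidise their substrates. Families 1 to 3 act mainly on drugs, environmental chemicals, steroids and bile acids, while family 4 mainly hydroxylates fatty acids and eicosanoids. In liver, ligand-activated transcription factors set much of their expression: the aryl hydrocarbon receptor (AHR) for the Cyp1 genes, CAR and PXR for many Cyp2b, Cyp2c and Cyp3a genes, and PPARA for Cyp4a genes.

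Values are log2 signals, on which a difference of 1 is a 2-fold change, and levels of different probe sets are not compared. Of the 51 P450 genes, 31 reached the mean log2 signal of 5.57 required for testing, 2 of family 1, 16 of family 2, 3 of family 3 and 10 of family 4. The nearest below that level were Cyp3a44 at 5.43 and Cyp2b9 at 5.37, and the nearest above were Cyp2j11 at 5.65 and Cyp4f15 at 5.79. The 20 genes below it had means of 3.08 to 5.43. Among them, over the 12 arrays, Cyp2b9 lay between 4.80 and 7.48, Cyp2c55 between 4.26 and 6.31, Cyp2j5, an arachidonic acid epoxygenase, between 4.03 and 5.97, and Cyp2u1, a fatty acid hydroxylase, between 4.95 and 5.88. Of the 7 P450 genes listed as female-predominant in mouse liver, 4 had a probe set, Cyp2b9, Cyp2b13, Cyp3a16 and Cyp3a44. None of these 4 had a mean at the level for testing in these male cells. Single arrays could exceed it, and Cyp3a44 read 6.19 to 6.96 in the arrays of number 1 and 4.15 to 5.45 in the others. Cyp2a4 and Cyp2a5 had no probe set under these symbols and so were not analysed.

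All 6 hepatocyte markers with a probe set, Alb and Apoa1 among them, were above the testing level, with a summed log2 level of 15.7 to 16.6 over the 12 arrays. Of the markers of other liver cells, 5 of 7 for macrophages, 4 of 6 for endothelium, 3 of 6 for stellate cells, 2 of 4 for cholangiocytes and 2 of 3 for blood cells were below it. The macrophage markers still had a summed log2 level of 10.6 to 12.3. These counts therefore do not show that other cells were absent. The Cnot6l probe set read 9.02 ± 0.54 (SD, n = 3) in wild-type inputs and 9.23 ± 0.11 in knockout inputs (limma, adjusted p = 1.0). Where its probes lie relative to the deletion is not stated, so it does not check the genotype labels. The 10th percentile of an array was 3.42 to 3.53 in the inputs and 3.77 to 4.26 in the IPs.

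The largest differences among the P450 genes lay between the replicate numbers, not between fractions or genotypes. In the 6 input arrays, 28 of the 31 tested P450 genes differed among numbers 1, 2 and 3 (limma F test with genotype as a covariate, adjusted p under 0.05). Because 68.8% of all 9496 tested genes were also called, size is the better description. At least a 2-fold gap with a call was found for 25 of the 31 P450 genes against 32.2% of all genes, and at least a 4-fold gap for 12 of the 31 against 5.2%. Cyp4a14 and Cyp4f15 reached the level for testing only through number 2, with means of 5.31 and 5.51 over the other 8 arrays. Without them, 26 of 29 P450 genes were called, 23 with a 2-fold and 11 with a 4-fold gap. The gap between the highest and the lowest number had a median of 1.67 over the P450 genes and 0.75 over all genes tested. It was 6.39 in family 1, 1.60 in family 2, 3.08 in family 3 and 1.66 in family 4, and the differences among families were not tested. The IP arrays, which are further portions of the same preparations, gave 19 of 31 P450 genes called between numbers, against 24.7% of all genes.

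**Figure D1:**
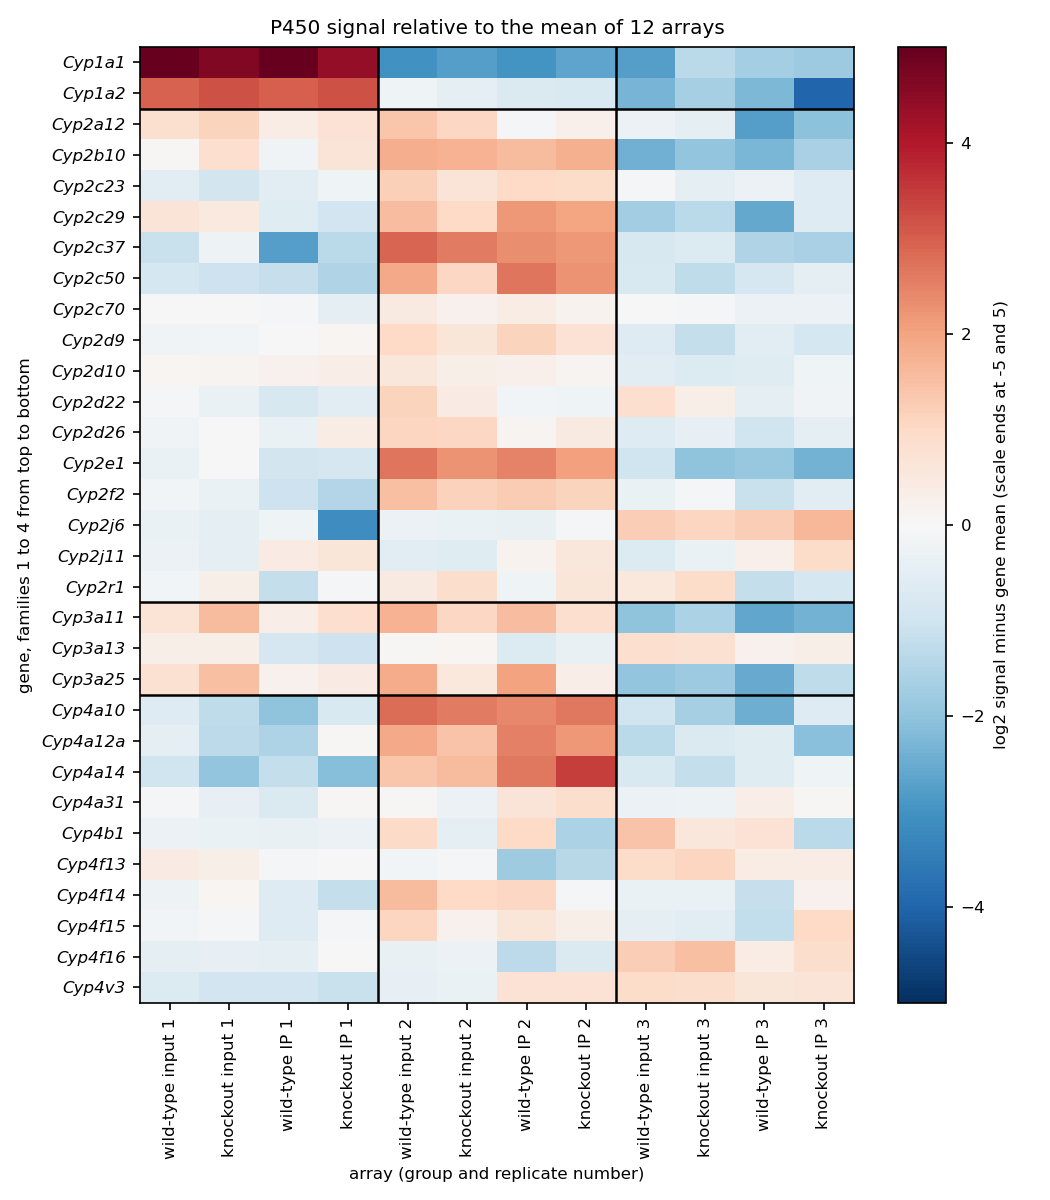
Log2 signal of each of the 31 tested P450 genes (rows, families 1 to 4 separated by lines) minus its mean over the 12 arrays (columns, ordered by replicate number). Colours run from lower (blue) to higher (red), and the 4 columns of a number resemble each other more than the 3 columns of a group do.

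Over all 12 arrays, the number accounted for a median of 81.7% of a P450 gene's sum of squares, against 47.5% for all genes tested. The fraction, IP or input, accounted for 2.37% against 12.9%, and the genotype for 0.643% against 2.08%. The number took more than 50% in 24 of the 31 P450 genes, against 47.2% of all genes. After removal of the group means, arrays that shared a number but not a group correlated over the 31 genes at 0.799 to 0.962. Each number holds 1 array of every group, and the labels do not say what a number shares between the genotypes. The direction was not uniform. Of the 28 called genes, 2 were highest in number 1, 19 in number 2 (17 of 26 without Cyp4a14 and Cyp4f15) and 7 in number 3. Of all called genes, 30.5%, 33.6% and 35.9% were highest in numbers 1, 2 and 3. Highest means the largest mean of 2 inputs, not a separation from the next number. Number 1 minus number 2 was -0.06 for Cyp3a25, -0.28 for Cyp3a11, -0.27 for Cyp2a12 and -0.32 for Cyp2d10. None of these differences passed (limma, adjusted p = 0.928, 0.585, 0.31 and 0.131). Some markers of other cells also differed between numbers. The summed stellate level was 9.24 to 9.99 in number 3 against 7.85 to 8.83 in numbers 1 and 2. The summed cholangiocyte level was 8.97 to 9.22 against 7.71 to 9.13. Of the tested markers, 1 of 3 stellate and 2 of 2 cholangiocyte ones were called, against 68.8% of all genes. The gaps of the 3 stellate markers ran from 0.12 to 3.24. Both tested endothelial markers, Stab2 and Kdr, were called and highest in number 3. The summed endothelial level overlapped, at 8.41 to 8.86 in number 3 and 7.63 to 8.78 in numbers 1 and 2. Of 2 tested macrophage markers, 1 was called, highest in number 1, and the summed macrophage level overlapped between numbers. The summed hepatocyte level overlapped between numbers, and 3 of its 6 markers were called, 50% against 68.8% of all genes. Tat had input means of 7.54, 8.57 and 5.31 in numbers 1, 2 and 3, and Hnf4a of 9.43, 8.41 and 7.70, both lowest in number 3, while Serpina1c was lowest in number 1. The part of these cells in the P450 differences was not tested. In bulk RNA, fewer cells of a type and less RNA per cell cannot be told apart.

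**Figure D2:**
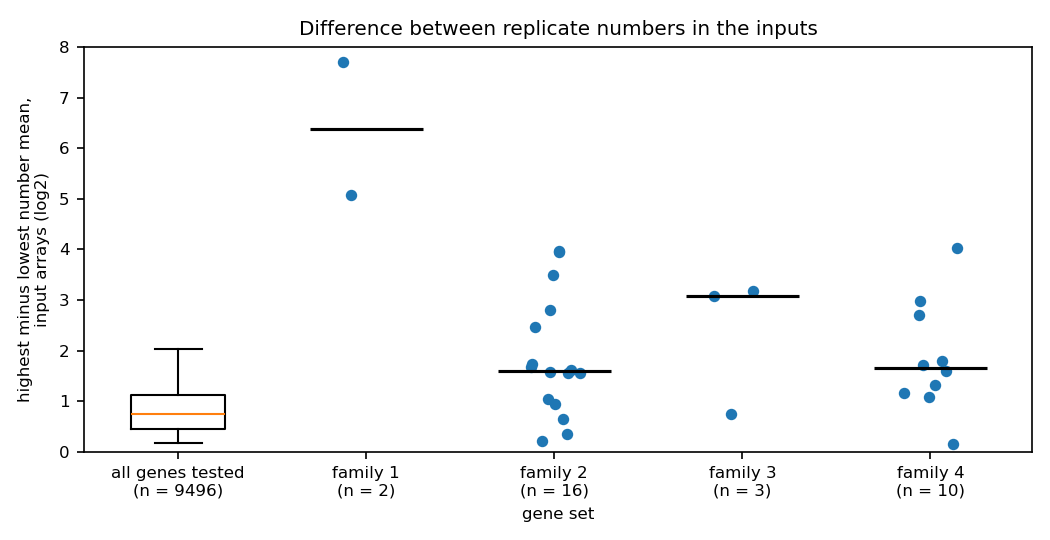
Difference between the highest and the lowest replicate number in the inputs (log2) for each tested P450 gene (points, black line at the family median) and, at the left, for all 9496 tested genes (box at the quartiles, whiskers at the 5th and 95th percentiles). Family 1 has a median of 6.39, against 0.75 for all genes.

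Family 1 was high in number 1. Cyp1a1, which oxidises polycyclic aromatic hydrocarbons and is the classical AHR target, read 13.60 in the wild-type and 13.22 in the knockout input of number 1. It read 5.55 and 5.85 in the inputs of number 2, and 5.85 and 7.23 in those of number 3. The inputs of number 1 thus stood apart in both genotypes. The mean of number 1 was 7.71 ± 0.38 (SE) above that of number 2, a 209-fold difference (limma, adjusted p = 0.000706), and 6.87 ± 0.38 above that of number 3 (limma, adjusted p = 0.0002385). This was the widest gap between numbers of all 9496 tested genes. The IPs repeated the order, with 13.59 and 12.99 in number 1, 5.59 and 5.96 in number 2, and 6.88 and 6.77 in number 3.

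Cyp1a2, the neighbouring gene, which oxidises aromatic amines and caffeine, read 12.54 and 12.77 in the wild-type and knockout inputs of number 1. It read 9.36 and 9.13 in number 2, and 7.25 and 7.91 in number 3. All 3 numbers were separate, and unlike Cyp1a1 its lowest number was the third. Number 1 exceeded number 3 by 5.07 ± 0.22 (SE), a 33.6-fold difference (limma, adjusted p = 0.00016), the 9th widest gap of all tested genes. Cyp1b1, the third member, an AHR target expressed mostly outside the liver, lay between 2.997 and 4.931 in all 12 arrays and was not tested.

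The 250 bases upstream of the start of Cyp1a1 and Cyp1a2 are printed because these neighbours had the widest gaps among the P450 genes. They come from RefSeq, build GRCm38.p6, at chr9:57697363-57697612 on the plus strand for Cyp1a1 and chr9:57683656-57683905 on the minus strand for Cyp1a2. Capitals mark GCGTG (the core of the element bound by AHR), TATAAA (a box near many start sites) and AGGTCA (a nuclear receptor half-site), searched on both strands, and no matches overlap in the windows printed.
Cyp1a1: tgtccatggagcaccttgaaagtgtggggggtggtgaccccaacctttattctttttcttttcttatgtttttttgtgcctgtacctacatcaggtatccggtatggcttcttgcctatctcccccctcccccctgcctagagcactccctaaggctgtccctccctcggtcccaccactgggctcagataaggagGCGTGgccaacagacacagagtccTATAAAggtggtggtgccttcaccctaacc
Cyp1a2: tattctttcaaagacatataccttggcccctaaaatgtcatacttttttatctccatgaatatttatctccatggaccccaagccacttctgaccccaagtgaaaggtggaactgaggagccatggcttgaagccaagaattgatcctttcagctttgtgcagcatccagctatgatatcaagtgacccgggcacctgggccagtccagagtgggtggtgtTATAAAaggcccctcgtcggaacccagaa

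The Cyp1a1 window held GCGTG from 54 to 50 bases upstream and TATAAA from 30 to 25 bases upstream. The Cyp1a2 window held TATAAA from 29 to 24 bases upstream and no GCGTG in these letters. Aligned end to end, the windows matched at 42.4% of 288 columns. Windows were matched for 40 of the 51 P450 genes. GCGTG occurred in the windows of 9 of these genes and in 28.2% of all 32851 windows, TATAAA in 15 and 12.4%, and AGGTCA in 11 and 14.0%. A match is a string of letters and does not show binding.

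Among the 16 tested genes of family 2, 14 were called between numbers, 12 of them highest in number 2 and 2 highest in number 3. Cyp2e1, which oxidises ethanol and acetaminophen, read 13.27 and 12.84 in the wild-type and knockout inputs of number 2. It read 10.27 and 10.60 in number 1, and 9.61 and 8.59 in number 3, so that the numbers did not overlap. Number 2 exceeded number 3 by 3.95 ± 0.30 (SE), a 15.5-fold difference (limma, adjusted p = 0.000562). Cyp2b10, the classical CAR target induced by phenobarbital, read 12.69 and 12.61 in number 2, 10.94 and 11.72 in number 1, and 8.46 and 8.90 in number 3. Its gap between numbers 2 and 3 was 3.97 ± 0.21 (SE; limma, adjusted p = 0.000383).

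The Cyp2c genes, which oxidise drugs and arachidonic acid, lie in a single run of 14 genes in RefSeq apart from Cyp2c23, and 7 of the 14 had a probe set. Cyp2c37 read 10.29 and 9.98 in the inputs of number 2, against 6.26 and 7.10 in number 1 and 6.59 and 6.69 in number 3. Cyp2c50, separated from it by Cyp2c54, read 10.25 and 9.43 in number 2, 7.48 and 7.35 in number 1, and 7.61 and 7.12 in number 3. Both genes were high in number 2 alone, with numbers 1 and 3 only 0.04 and 0.05 apart. The gap between numbers 2 and 3 was 3.49 ± 0.26 (SE) for Cyp2c37 and 2.47 ± 0.19 for Cyp2c50 (limma, adjusted p = 0.000562 for each). Cyp2c29, in the same run, was instead low in number 3, at 7.62 and 8.01 against 9.86 to 10.90 in the other inputs. Cyp2c70, at the end of the run, makes muricholic acids in rodents. It read 13.10 to 13.58 in all 6 inputs and did not pass between numbers, with a gap of 0.35 (limma F test, adjusted p = 0.0751).

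The windows of Cyp2c37 and Cyp2c50 are printed because both genes had the same profile over the numbers and their windows resembled each other. They lie at chr19:39992174-39992423 and chr19:40089429-40089678, both on the plus strand (RefSeq, GRCm38.p6), and hold none of the searched motifs, so no letter is in capitals.
Cyp2c37: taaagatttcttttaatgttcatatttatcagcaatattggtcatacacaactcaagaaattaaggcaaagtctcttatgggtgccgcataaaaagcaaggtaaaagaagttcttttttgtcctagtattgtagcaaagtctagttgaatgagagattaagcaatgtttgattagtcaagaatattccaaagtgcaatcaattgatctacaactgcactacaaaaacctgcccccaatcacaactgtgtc
Cyp2c50: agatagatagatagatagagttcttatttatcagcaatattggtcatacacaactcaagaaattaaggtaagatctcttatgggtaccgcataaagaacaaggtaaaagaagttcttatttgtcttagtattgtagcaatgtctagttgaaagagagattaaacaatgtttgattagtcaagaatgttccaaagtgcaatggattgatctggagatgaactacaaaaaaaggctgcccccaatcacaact

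These windows matched at 84.3% of 255 aligned columns. Cyp2c39 and Cyp2c37 matched at 56.4%, and Cyp2c37 and Cyp2c70 at 44.4%. The printed pair was picked for both traits, and whether alike windows go with alike profiles was not tested. P450 subfamilies hold many near-identical copies, most of all the Cyp2c, Cyp2d, Cyp3a and Cyp4a genes. The sources used here do not say which transcripts each probe set reads among such copies, so their separate values are uncertain.

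Other family 2 genes followed smaller gaps. Cyp2f2, which oxidises naphthalene, was 1.56 ± 0.18 (SE) higher in number 2 than in number 1, and Cyp2d9, a male-predominant testosterone hydroxylase, 1.72 ± 0.18 higher in number 2 than in number 3 (limma, adjusted p = 0.00462 and 0.000876). Cyp2d10 had a gap of 1.03, Cyp2d22 of 0.94, both called and highest in number 2. Number 2 did not pass against number 1 for Cyp2d10 or against number 3 for Cyp2d22 (limma, adjusted p = 0.131 and 0.304). The vitamin D hydroxylase Cyp2r1, with a gap of 0.65, and Cyp2j6, an arachidonic acid epoxygenase, were highest in number 3. Cyp2j6 read 9.65 and 9.49 in number 3 against 7.94 to 8.12 in the other inputs. Cyp2j11 had no call, with a gap of 0.21 (limma F test, adjusted p = 0.517). The remaining called genes, Cyp2a12, Cyp2c23 and Cyp2d26, had gaps of 1.58 to 1.67 and were highest in number 2.

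In family 3, Cyp3a11 and Cyp3a25 were low in number 3. Cyp3a11, the main PXR-inducible drug and steroid oxidase of mouse liver, read 11.97 and 12.87 in number 1, 13.05 and 12.34 in number 2, and 9.31 and 9.72 in number 3. Number 3 was 9.08-fold below number 2, a log2 gap of 3.18 ± 0.36 (SE; limma, adjusted p = 0.001075), while numbers 1 and 2 overlapped. Cyp3a25 gave 7.96 and 8.69, 9.06 and 7.71, and 5.24 and 5.38 in the same order, a gap of 3.08 ± 0.45 between numbers 2 and 3 (limma, adjusted p = 0.0022). Cyp3a13, which stands apart from the Cyp3a run in the genome, differed in the other direction. It was 0.74 ± 0.13 higher in number 3 than in number 2 (limma, adjusted p = 0.00381).

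Family 4 was divided. Of its 9 called genes, 5 were highest in number 2 and 4 in number 3. The PPARA targets Cyp4a10 and Cyp4a14, which hydroxylate fatty acids, belonged to the first group. Cyp4a10 read 10.05 and 9.86 in the wild-type and knockout inputs of number 2, 6.59 and 5.99 in number 1, and 6.25 and 5.58 in number 3. Number 2 stood clear of the other inputs, by 4.03 ± 0.16 (SE) over number 3 (limma, adjusted p = 0.000247). Cyp4a14 read 7.84 and 8.03 in number 2 and 4.46 to 5.68 in the other inputs. Cyp4a12a, a male-predominant arachidonic acid hydroxylase, read 8.99 and 8.53 in number 2 and 5.73 to 6.66 elsewhere. Their neighbour Cyp4a31 had a gap of 0.15 and no call (limma F test, adjusted p = 0.67). Cyp4f14, a leukotriene hydroxylase, had a gap of 1.60 and Cyp4f15 of 1.16, both highest in number 2, through which alone Cyp4f15 was tested.

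Cyp4f16, Cyp4v3, Cyp4f13 and Cyp4b1 were highest in number 3, with gaps of 1.79, 1.71, 1.08 and 1.32. The Cyp4f run therefore held genes of both directions. Cyp4v3, a fatty acid hydroxylase whose human counterpart is mutated in Bietti crystalline dystrophy, read 11.55 and 11.52 in number 3 against 9.68 to 10.33 in the other inputs. Cyp4b1, which bioactivates furans and aromatic amines, was not called between numbers in the IPs (limma F test, adjusted p = 0.999), where the genotypes ran opposite ways. Numbers 1, 2 and 3 read 6.54, 7.92 and 7.62 in the wild-type IPs and 6.61, 5.32 and 5.57 in the knockout IPs.

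**Figure D3:**
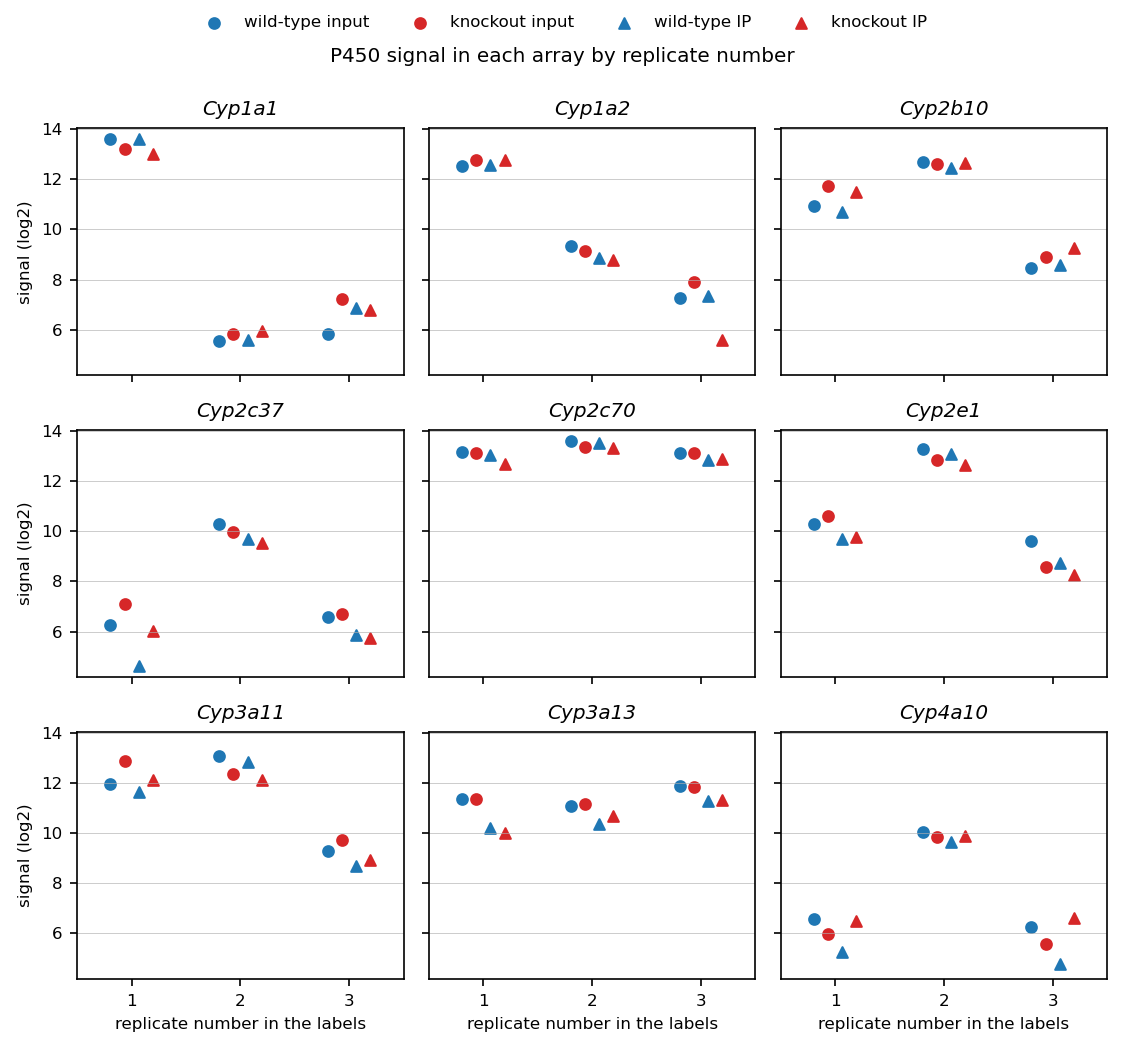
Log2 signal of 9 P450 genes in every array, by replicate number (circles input, triangles IP, blue wild type, red knockout). Cyp1a1 and Cyp1a2 are highest in number 1, Cyp2b10, Cyp2c37, Cyp2e1 and Cyp4a10 in number 2, and Cyp3a11 is lowest in number 3, while Cyp2c70 stays between 12.69 and 13.58.

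Grouped by inducing receptor, the lists gave the following counts between numbers in the inputs. Both tested AHR-inducible genes were called and highest in number 1. All 6 tested CAR and PXR inducible genes were called, 5 of them highest in number 2 and 5 lowest in number 3, the exception in each case being Cyp3a13. For Cyp2c37 and Cyp2c50, number 1 was only 0.04 and 0.05 above number 3 (limma, adjusted p = 0.901 and 0.839). Of the 4 tested PPARA-inducible genes, Cyp4a10, Cyp4a12a and Cyp4a14 were called, each highest in number 2, and Cyp4a14 was tested only because of that number. Both tested male-predominant genes, Cyp2d9 and Cyp4a12a, were highest in number 2. Of the regulators, 15 of 20 tested were called, against 68.8% of all genes, with a median gap of 0.96. Ahr read 8.23 to 9.42 in the 6 inputs, with means of 9.33, 8.63 and 9.08 in numbers 1, 2 and 3. Ppara had means of 7.35, 8.64 and 7.44, and Nr1i2, which encodes PXR, 7.56, 7.98 and 6.50. Each of these 3 regulators was called between numbers (limma F test, adjusted p = 0.02925, 0.00113 and 0.00344). Nr1i3, which encodes CAR, lay between 3.46 and 5.55 in the inputs and was not tested.

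The list of P450 partner and haem genes, called supply genes below, also holds genes of haem breakdown such as Hmox1 and Blvrb. Of its 17 genes, 15 had a named probe set, and Por, which encodes P450 reductase, had none. These 15 were tested and showed smaller gaps, with a median of 0.88. Of these, 11 were called, 73.3% against 68.8% of all genes. Number 1 was highest in 9 of the 11, against 30.5% of all called genes. Hmox1, which degrades haem, had input means of 11.54, 9.95 and 9.54 in numbers 1, 2 and 3, and Blvrb, which reduces biliverdin, 13.08, 12.37 and 11.33. Alas1, the first enzyme of haem synthesis, named here after its values were seen, had 11.38, 10.49 and 9.89. Of the 8 tested P450 genes of families 5 and above, 4 were called between numbers, 50% against 68.8% of all genes. The number took more than 50% of the sum of squares in 1 of the 8, against 24 of the 31 genes of families 1 to 4.

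The precipitate was then compared with the input, which asks whether P450 transcripts were recovered with the antibody. In wild type, none of the 31 P450 genes was called in either direction (limma without a block), where the background was 0.105% of all genes higher and 0% lower. An unadjusted p under 0.05 was found for 3, Cyp2j11 higher and Cyp2d22 and Cyp2r1 lower. Of all 9496 genes, 435 were higher and 573 lower at that level. The P450 genes had a median difference, IP minus input, of -0.31, against -0.11 for all genes and -0.30 for the 1475 genes with a mean of at least 10. The family medians were 0.11, -0.32, -0.39 and -0.41 for families 1 to 4. The difference was below 0 in all 3 preparations for 15 of the 31, which is 48.4% against 33% of all genes and 51.2% of those 1475. On the higher side, Cyp4a31 at 0.20 and Cyp4a14 at 0.40 followed Cyp2j11 and did not pass.

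Each IP came from the same preparation as an input, and the fit with the preparation as the block uses this. With the preparation as the block, Cyp2j11 and Cyp2d22 were called (background 2.41% higher and 4.61% lower), and Cyp2j11 reached the level for testing through its IPs alone. Cyp2d22, often treated as the mouse relative of a human drug-metabolising enzyme, read 9.09, 10.23 and 9.96 in the wild-type inputs of numbers 1, 2 and 3, and 8.32, 8.996 and 8.67 in the IPs. The groups did not overlap, which held for 3 of the 31 P450 genes and 15.3% of all genes. The difference was -1.10 ± 0.21 (SE in the blocked fit; limma, adjusted p = 0.0244, and 0.273 without the block). Cyp2r1 read 6.70, 7.25 and 7.35 in the inputs and 5.63, 6.59 and 5.62 in the IPs, also without overlap, and did not pass with this block (limma, adjusted p = 0.072).

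Cyp2j11 read 5.35, 5.08 and 4.98 in the wild-type inputs and 6.05, 5.81 and 5.92 in the IPs. In the knockout it read 5.19, 5.05 and 5.33 in the inputs and 6.26, 6.22 and 6.58 in the IPs. IP and input did not overlap in either genotype. The wild-type difference was 0.79 ± 0.19 (SE, blocked fit), and that of the knockout was 1.16 ± 0.19 (limma, adjusted p = 0.0428 and 0.0237 with the block, and 0.268 and 0.158 without). All 6 inputs lay below the 5.57 required for testing, and the gene was tested only because its IPs were higher, so these differences are a description and its calls support nothing. Low signals were higher in the IPs in general. Of the 20 P450 genes below the testing level, 16 had a higher mean in the wild-type IP and 19 in the knockout IP, against 88.5% and 91% of all 6284 such genes. The part of this shift in the Cyp2j11 difference was not tested.

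The block by number within each fraction links the genotypes and does not pair an IP with its input. Its p-values leave out the spread between numbers that both genotypes share in a fraction. With it, 8 P450 genes were lower in the wild-type IP and 1 higher, in a background of 15.2% lower and 7.8% higher. The 8 were Cyp2a12, Cyp2d22, Cyp2d26, Cyp2r1, Cyp3a13, Cyp4a10, Cyp4f13 and Cyp4f16. Their differences ran from -0.49 for Cyp2d26 to -1.45 for Cyp2a12. Of the 8, Cyp2d22 alone was also called with the preparation block. Cyp2a12, a steroid hydroxylase, read 11.51, 12.10 and 10.41 in the inputs and 11.08, 10.63 and 7.94 in the IPs. Its 3 differences were -0.43, -1.46 and -2.47 (limma, adjusted p = 0.00477 with this block and 0.0551 with the preparation block). Among the 1475 genes with a mean of at least 10, 383 were lower in the same fit. Of the 31 P450 genes, 10 had such a mean, among them Cyp2a12, Cyp2d26 and Cyp3a13 of the 8. The share lower was not tested against either background.

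In the knockout, the negative control of the precipitation, 0 of 31 P450 genes were called without a block. The same held for all genes, with 0% in each direction. Among P450 genes, Cyp2j11 alone had an unadjusted p under 0.05, against 282 of all 9496 genes higher and 760 lower. With the preparation as the block, Cyp2j11 was the single call (background 0.727% higher and 5.28% lower). With the number block it was called higher and 4 genes lower, Cyp2a12, Cyp2r1, Cyp3a13 and Cyp4f13 (background 4.52% and 17.8%). The median difference of the P450 genes was -0.21, equal to that of all genes. These 4 genes were also among the 8 called lower in the wild type. Cyp3a13, for example, was at -0.82 in the wild type and -0.76 in the knockout. Of the genes not passing with the preparation block, Cyp4b1 was at -0.996, Cyp3a13 as given and Cyp2r1 at -0.80 on the lower side, and Cyp4a31 at 0.66, Cyp4f15 at 0.55 and Cyp4a14 at 0.91 on the higher side. IP and input did not overlap for Cyp2j11 and Cyp4a31, 2 of 31, against 15.4% of all genes.

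**Figure D4:**
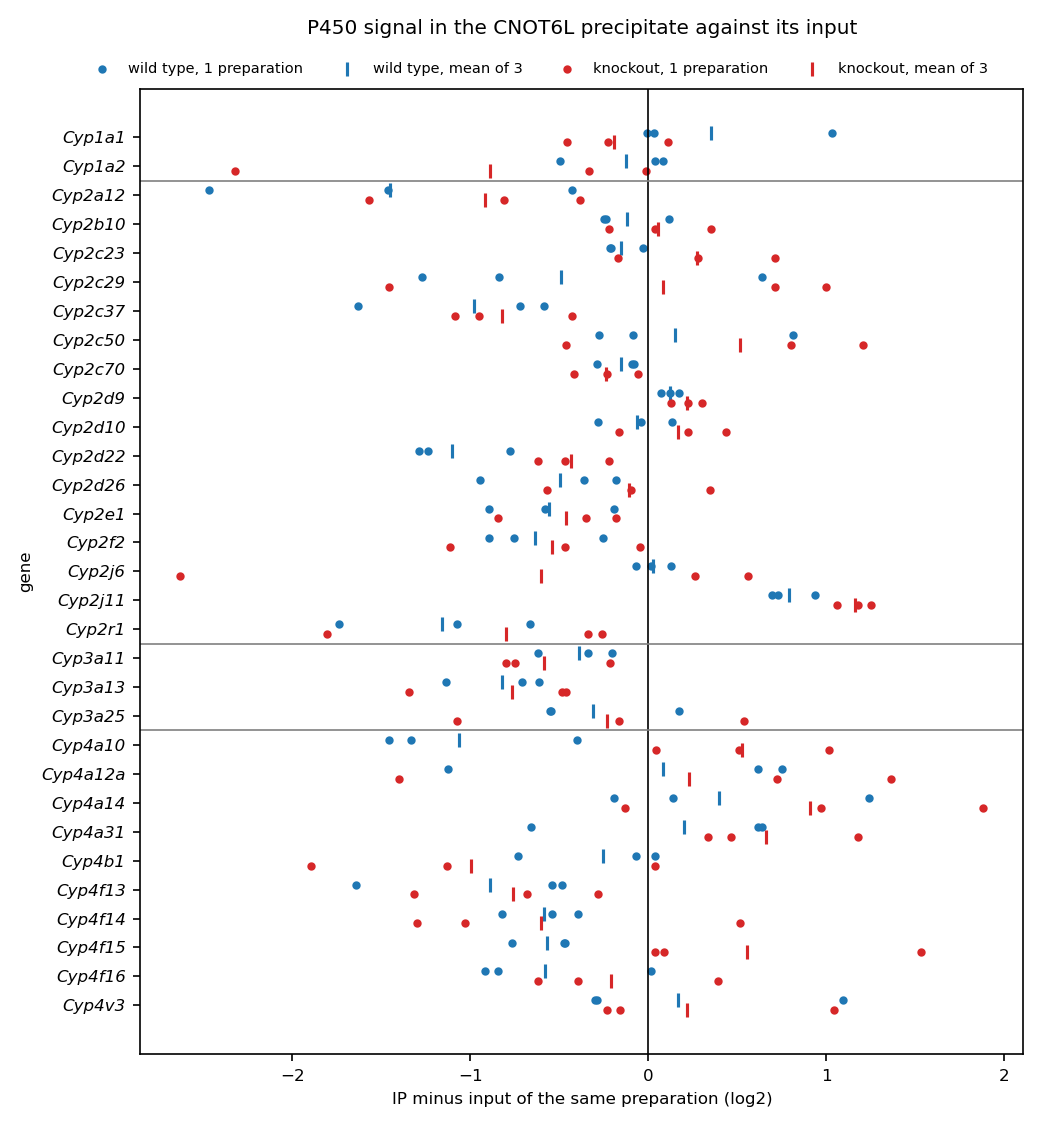
IP minus input of the same preparation (log2) for the 31 tested P450 genes, in wild type (blue) and knockout (red). Small points are the 3 preparations of a genotype and bars their mean. Cyp2j11 lies above 0 in all 6 preparations, and Cyp4a10 and Cyp4f15 lie below 0 in the 3 wild-type preparations and above it in the 3 knockout ones.

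The inputs of both genotypes were compared to see whether loss of CNOT6L altered P450 mRNA levels. Limma called no P450 gene, whether fitted plainly, with the number blocked in the 6 inputs or with the number block over all 12 arrays, and none of the 9496 genes (0%). No P450 gene had an unadjusted p under 0.05, against 3 of all 9496 genes higher and 2 lower. In 0 of the 31 were the groups without overlap, against 1.62% of all genes. The median knockout minus wild-type difference was -0.11, against 0.02 for all genes, and the family medians were 0.33, -0.11, -0.00 and -0.23. The smallest p values belonged to Cyp4b1 at -0.78, Cyp2d22 at -0.50, Cyp2c23 at -0.43 and, on the higher side, Cyp2r1 at 0.42, Cyp2b10 at 0.38 and Cyp2d26 at 0.12, none of which passed (limma, adjusted p = 1.0 for each). Cyp2r1 was higher in the knockout by 0.40, 0.45 and 0.40 in numbers 1, 2 and 3, a difference steady over the numbers that did not pass either (limma with the number block over the inputs, adjusted p = 0.785).

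The wild-type and knockout IPs differed in no P450 gene by limma without a block, in a background of 0.253% higher in the wild-type IP and 0% lower. With the preparation number as the block over the IPs the count was also 0, in a background of 0.0737% and 0%, and with the number block over all arrays it was 0 against 3.58% and 0.421%. Cyp4b1 had the largest difference and the only unadjusted p under 0.05 among P450 genes, against 454 of all 9496 genes higher and 58 lower. It read 6.54, 7.92 and 7.62 in the wild-type IPs and 6.61, 5.32 and 5.57 in the knockout IPs. The wild-type IP was higher in numbers 2 and 3 and lower in number 1. The mean difference of 1.52 ± 0.54 (SE) did not pass without a block or with either block (limma, adjusted p = 0.594, 0.404 and 0.147). Its inputs differed the same way, with wild-type values of 6.60, 7.88 and 8.35 and knockout values of 6.57, 6.45 and 7.47. The next smallest p values on the higher side, which did not pass, belonged to Cyp2j6 at 0.74, with 5.31 in the knockout IP of number 1 against 8.20 in the wild-type one, and Cyp2c70 at 0.18. Lower in the wild-type IP without passing were Cyp2r1 at -0.77, Cyp2j11 at -0.43 and Cyp4f15 at -0.82 (limma, adjusted p = 1.0 for each). Cyp2j11 was the 1 P450 gene whose IPs did not overlap between genotypes, against 6.79% of all genes.

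Specific enrichment is the wild-type difference of IP and input less the same quantity in knockout, and shares its arrays with the comparisons above. No P450 gene was called by limma without a block, with the preparation block or with the number block, where the background higher was 0.0105%, 0.0211% and 0.358% and the background lower 0%. None had an unadjusted p under 0.05 without a block, against 174 of all 9496 genes higher and 14 lower. The median was -0.16, against 0.05 for all genes. Of the 31 values, 24 were below 0, against 4200 of all 9496 genes and 853 of the 1475 with a mean of at least 10. In 12 of the 31, or 38.7%, the value was below 0 in all 3 numbers, against 13.7% of all genes and 23.1% of those with a mean of at least 10. In 1, Cyp3a11, it was above 0 in all 3, against 21.4%. The family medians were 0.65, -0.29, -0.06 and -0.26. None of these medians was tested.

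The intervals bound how large an enrichment could have been missed. Without a block, the upper 95% limit lay under 1, that is under a 2-fold enrichment, in 7 of the 31 P450 genes, and under 2 in 13. With the number block it lay under 1 in 23 and under 2 in 29. The 2 with a higher limit in that fit were Cyp2j6, at 2.54, and Cyp4b1, at 2.37. For Cyp2c70 the difference was 0.08, with an interval of -0.39 to 0.55 in that fit. For Cyp3a13 it was -0.06, with an interval of -0.55 to 0.44.

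**Figure D5:**
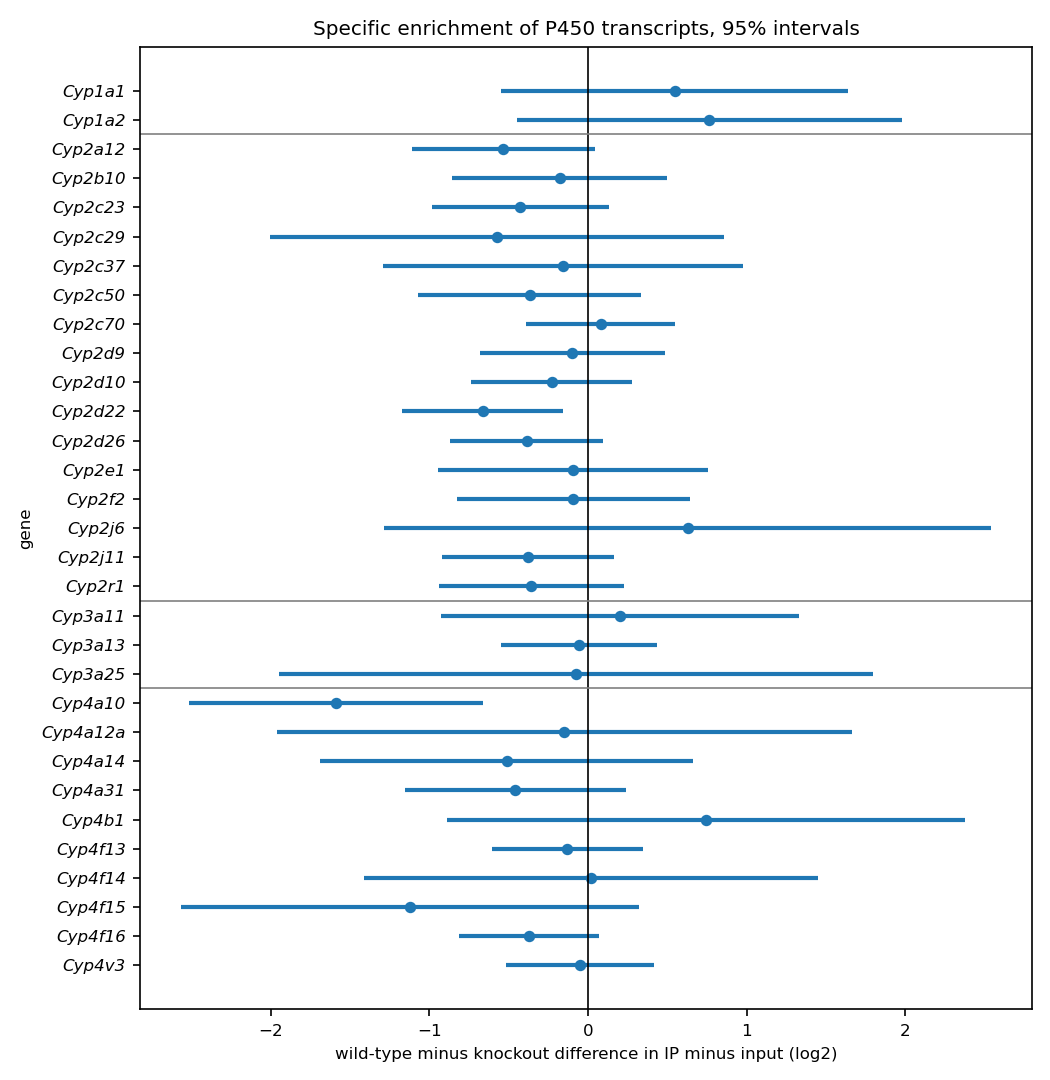
Specific enrichment of the 31 tested P450 genes (points; log2), with unadjusted 95% intervals from the limma fit with the number within each fraction as the block (lines). The intervals of Cyp4a10 and Cyp2d22 lie below 0, and neither gene passed after adjustment over 9496 genes.

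Cyp4a10 had the most negative specific enrichment. In numbers 1, 2 and 3 of the wild type, its IP minus input values were -1.33, -0.40 and -1.46. The knockout gave 0.51, 0.04 and 1.02. The signs were opposite in all preparations, and the difference of -1.59 did not pass in any of the 3 fits (limma, adjusted p = 1.0 without a block, 0.254 with the preparation block and 0.192 with the number block). Cyp4f15, tested only because of number 2, had the same signs, with a specific enrichment of -1.12 (limma, adjusted p = 1.0, 0.68 and 0.636 in the same order). Its knockout values were 0.04, 0.09 and 1.54, so 2 of them were close to 0. This pattern of signs occurred in 2 of the 31 P450 genes and in 17 of the 9496 genes, and the reverse pattern in 0 of the 31 and 158 of the 9496. The pattern was taken from these same values, so the counts are a description and support nothing. Cyp2d22, at -0.66, and Cyp2j11, at -0.38, were lower in all 3 numbers and did not pass. On the positive side Cyp1a2, at 0.76, Cyp4b1, at 0.74, and Cyp2j6, at 0.63, rested on 1 or more divergent numbers. Their values by number were 0.05, -0.17 and 2.41 for Cyp1a2, -0.10, 1.17 and 1.17 for Cyp4b1 and 2.76, -0.33 and -0.55 for Cyp2j6.

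By list, the 2 tested AHR-inducible genes had specific enrichments of 0.55 and 0.76, the 4 tested PPARA-inducible genes of -1.59 to -0.15, the 6 CAR and PXR inducible genes of -0.58 to 0.20 and the 2 male-predominant genes of -0.15 and -0.10. The 15 supply genes, haem breakdown included, had a median of -0.05 and the 20 regulators of 0.12. No gene of these lists was called in any of the 5 comparisons without a block. With the preparation block, 2 of the 15 supply genes, Cyb5r3 and Blvrb, were lower in the wild-type IP and 2, Cyb5r3 and Hmox1, in the knockout IP, in backgrounds of 4.61% and 5.28%. With the number block, 5 of the 15 were lower in each genotype, in backgrounds of 15.2% and 17.8%. Of the 20 regulators in that fit, 2 were higher and 1 lower in the wild-type IP, in backgrounds of 7.8% and 15.2%. In the knockout IP, 1 regulator was lower, in a background of 17.8%. Between the IPs, 1 supply gene and 1 regulator were higher in the wild type, in a background of 3.58%. Cyb5r3, which passes electrons to cytochrome b5, had the largest differences of that list, at -1.72 for the wild type and -1.60 for the knockout.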

How the data were processed

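Hepatocyte RNA was hybridised to 12 arrays, 3 in each of 4 groups, and 1 log2 value per probe set and array was used as deposited by the authors. The sources used here do not give the steps that made these values. The titles call the replicates biological; nothing else says that they came from separate animals, so p-values measure the spread between these samples. Gene names came from the platform annotation. The 40% of probe sets with the lowest means over 12 arrays, under 5.57, were left out, leaving 9496 genes.

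Differences were fitted with limma 3.58.1 (R 4.3.3) on 4 group means over 12 arrays, with 8 residual degrees of freedom, and p-values were adjusted by Benjamini-Hochberg over all genes tested (called under 0.05). Fits with a block took the preparation (4 residual degrees of freedom), the number in the arrays of a fraction (2), or the number within each fraction (4). The series text states that IP and input of a preparation are paired, which only the fit with the preparation block uses. Arrays of other groups with the same number correlated at 0.453 to 0.936 over all tested genes after removal of group means. Arrays of a number thus resembled each other across groups. Those with other numbers correlated at -0.711 to 0.0685, which removal of the group means itself pushes below 0. The scripts were tested on simulated data.

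The F test among numbers (2 residual degrees of freedom) and its alternatives were added after the data were seen. The P450 genes and the lists were chosen with earlier results of these data known. A fixed list of P450 genes was named always. In each comparison, genes called with or without the preparation block were added, and up to 3 with the smallest p in a direction where fewer were called. List genes were named by their largest differences, and Ahr, Nr1i2, Nr1i3 and Ppara always. Alternatives were quantile normalization, no filter, a filter at the 60th percentile, limma-trend, only the arrays compared, and leaving out each array.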

Additional observations from a re-analysis of the deposited data

How the results depend on the processing

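The count of P450 genes called depended on the choice of block, and only the preparation block pairs an IP with its input. For wild-type IP against input it was 0 without a block, 2 with the replicate block by preparation and 9 with the block by number within each fraction, and for knockout IP against input 0, 1 and 5. Each of these blocked counts includes Cyp2j11, which was tested only because of its IPs. In the other 3 comparisons the replicate block gave 0 as well, and no other alternative run changed any of the 5 counts. Between numbers, 28 of 31 were called with quantile normalization, 35 of 51 without the filter and 20 of 21 with the filter at the 60th percentile. In the main fit 68.8% of all genes were called. The shares of all genes under these alternatives are not given here, so these counts do not show how far P450 genes exceeded them.

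Family medians with all arrays moved with the filter and the normalization in some cases. For wild-type IP against input, family 2 went to -0.24 with quantile normalization and -0.0175 without the filter, and family 4 to -0.0211 without the filter. For knockout IP against input, family 2 went to 0.25 without the filter, and family 4 to 0.32 with quantile normalization and -0.21 with the stricter filter. Family 4 went to -0.0845 without the filter and 0.0318 with the stricter one between the inputs, and to -0.13 with the stricter one for specific enrichment.

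Leaving out 1 array unbalances the numbers, and the medians then spread widely. They were -1.86 to 2.14 in family 1, -1.07 to 0.20 in family 2, -1.40 to 0.80 in family 3, -0.74 to 0.0179 in family 4 for wild-type IP against input. They were -2.57 to 1.28 in family 1, -0.63 to 0.33 in family 2, -1.17 to 0.32 in family 3, -0.41 to 0.51 in family 4 for knockout IP against input. Between the inputs they were -1.49 to 2.35 in family 1, -0.48 to 0.36 in family 2, -0.87 to 0.78 in family 3, -0.46 to 0.0942 in family 4. Between the IPs they were -1.65 to 2.36 in family 1, -0.77 to 0.41 in family 2, -0.90 to 1.18 in family 3, -0.53 to 0.22 in family 4. For specific enrichment they were -1.32 to 2.69 in family 1, -0.85 to 0.27 in family 2, -0.87 to 1.14 in family 3, -0.68 to 0.0741 in family 4. No sign of a family median held over these alternatives in any comparison. With 3 arrays a group, intervals without a block reach 9.19 at the widest (Cyp1a1), so a missing call is no evidence of equal levels.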
